A study of Arabidopsis thaliana with 4 samples.

Results

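Plant U-box (PUB) proteins are ubiquitin ligases, the enzymes that choose which protein a cell tags with ubiquitin, often for destruction by the proteasome. Their U-box is a short fold that docks an E2 enzyme, which carries the activated ubiquitin, and the rest of the ligase holds the substrate. In Arabidopsis leaves several PUB proteins are known as brakes: PUB22, PUB23 and PUB24 act together to dampen the immune response to microbial patterns, PUB25 and PUB26 mark the immune kinase BIK1 for degradation, and PUB19 restrains responses to abscisic acid and drought. Members were the probe sets that the array's annotation pairs with exactly 1 gene and whose symbol is PUB followed by digits. This gave 7 probe sets of 7 genes out of 9685 probe sets with 1 gene and 16319 in all. The members are PUB19 (AT1G60190), PUB22 (AT3G52450), PUB23 (AT2G35930), PUB24 (AT3G11840), PUB25 (AT3G19380), PUB26 (AT1G49780) and PUB43 (AT1G76390). The reference gives a PUB symbol or synonym to 23 loci, a match of names rather than a census of U-box genes. Of these loci the 7 members were found among probe sets paired with 1 gene, and the other 16 were not analysed here.

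The study measured leaf transcripts of Arabidopsis thaliana plants that were 5 weeks old, to follow what probenazole (PBZ), a chemical activator of plant defence given to raise the plants' own salicylic acid, does to gene expression. The group called before was untreated (time 0 h), and the group called after was taken 72 h after 0.5 mM PBZ had been applied to the roots. Both groups consisted of rosette leaves 5 to 8 from plants grown in short days of 8 h light and 16 h dark, and each had 2 biological replicates on 1 Affymetrix array each. The labels give no accession, no genotype and no number of plants per sample, and there was no group of untreated leaves at 72 h, so PBZ and the passage of 72 h cannot be told apart.

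The values are linear signals per probe set, and the array medians were 19.2 and 27.6 before and 32.5 and 27.1 after. The median log2 change of the 12239 probe sets bright enough to be tested was 0.37 as deposited, 0.0065 once the medians of the arrays were made equal (median centring) and -0.060 after quantile normalization. A change of a member is therefore read against that shift. None of the 11 mesophyll genes listed as leaf markers was found among the 9685 probe sets paired with 1 gene. Another 6278 probe sets are paired with no gene and 356 with several, so a gene not found may still be on the array. Of other genes of leaf photosynthesis, picked after the data were seen, LHCB4.2 had signals from 4040 to 5177 and the Calvin cycle enzyme PRK from 1856 to 4819, so transcripts of green tissue were plainly present on all 4 arrays. Of the markers of other leaf cell types, the guard cell factor FMA (FAMA) and the phloem sugar transporter SWEET11 were tested, with log2 changes of 0.44 ± 0.60 (SE) and -0.49 ± 0.42, and neither passed the test (limma adjusted p = 0.779 and 0.615). No gene of the xylem, epidermis or root marker lists was found among the probe sets paired with 1 gene. In whole leaves, fewer cells of a type and less RNA per cell cannot be told apart.

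PUB24, the brake on immunity, was the only tested PUB gene past the threshold after PBZ. Its signal was 32.0 and 59.3 on the 2 arrays before PBZ and 229 and 164 on the 2 arrays after it. Both arrays after PBZ lay above both arrays before it, as in 36.1% of all tested probe sets. The group means were 45.7 ± 19.3 before and 197 ± 46.2 after (SD, n = 2 arrays each). The ratio of geometric means was 4.45-fold, with a 95% interval from 1.98 to 10.0. PUB24 rose by a log2 change of 2.15 ± 0.57 (SE; limma's moderated test on log2 signal with Benjamini-Hochberg adjustment over 12239 probe sets, adjusted p = 0.0190). Relative to the median of its own array, PUB24 stood at 1.67 and 2.15 before and at 7.06 and 6.05 after. The rise was thus larger than the difference in brightness between the arrays, with a log2 change of 1.79 ± 0.44 after median centring (adjusted p = 0.0142) and 1.67 ± 0.44 after quantile normalization (adjusted p = 0.0205).

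**Figure D1:**
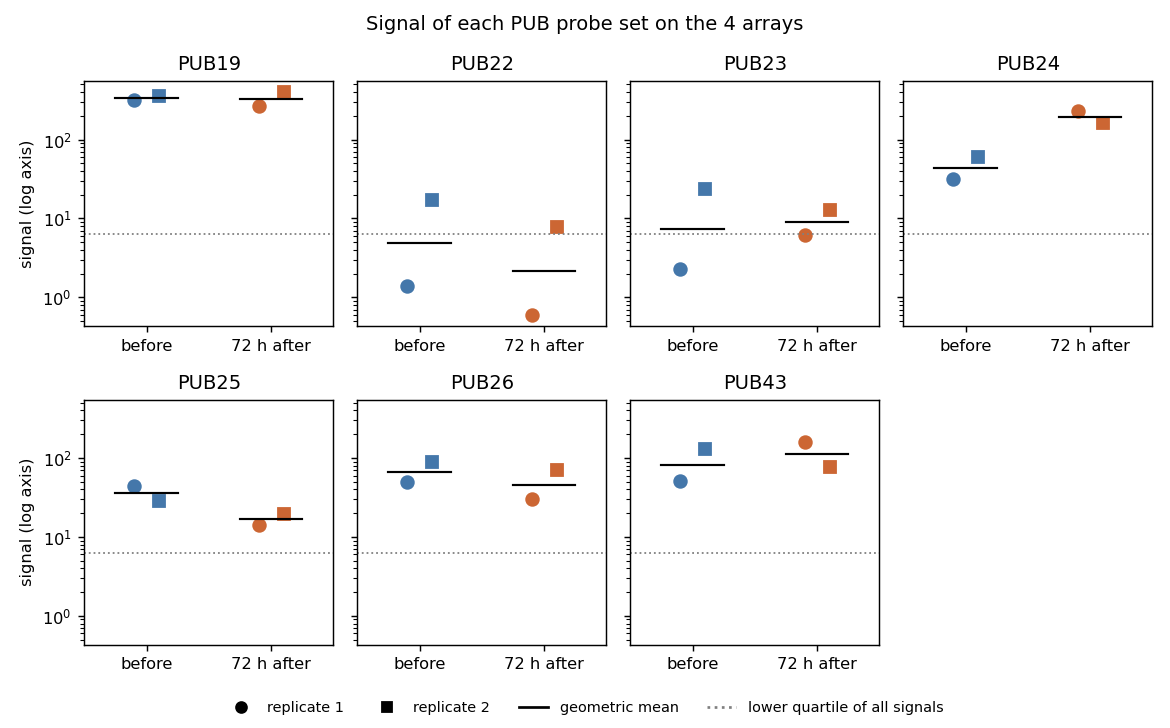
Signal of each of the 7 PUB probe sets (log axis, arbitrary units of the array) on the 2 arrays before PBZ and the 2 arrays 72 h after it; symbols mark the replicate number, bars the geometric mean, and the dotted line a signal of 6.3, the lower quartile of all signals. The groups are apart for PUB24 (32.0 and 59.3 against 229 and 164) and, in the other direction, for PUB25 (44.3 and 28.8 against 14.3 and 19.4), and overlap for the other 5. Of all tested probe sets, 36.1% are apart with the later arrays higher and 10.6% with them lower.

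The call of PUB24 rested on few arrays and on the error model. With limma it did not pass without before replicate 1 (log2 change 1.71, adjusted p = 0.215), without after replicate 1 (1.91, adjusted p = 0.336) or without after replicate 2 (2.40, adjusted p = 0.106), nor with the replicate number as a block (adjusted p = 0.0548), without an intensity trend (0.159) or against a 1.5-fold change (0.126). Its fitted change was positive in all 13 alternatives, between 1.67 and 2.60.

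**Figure D2:**
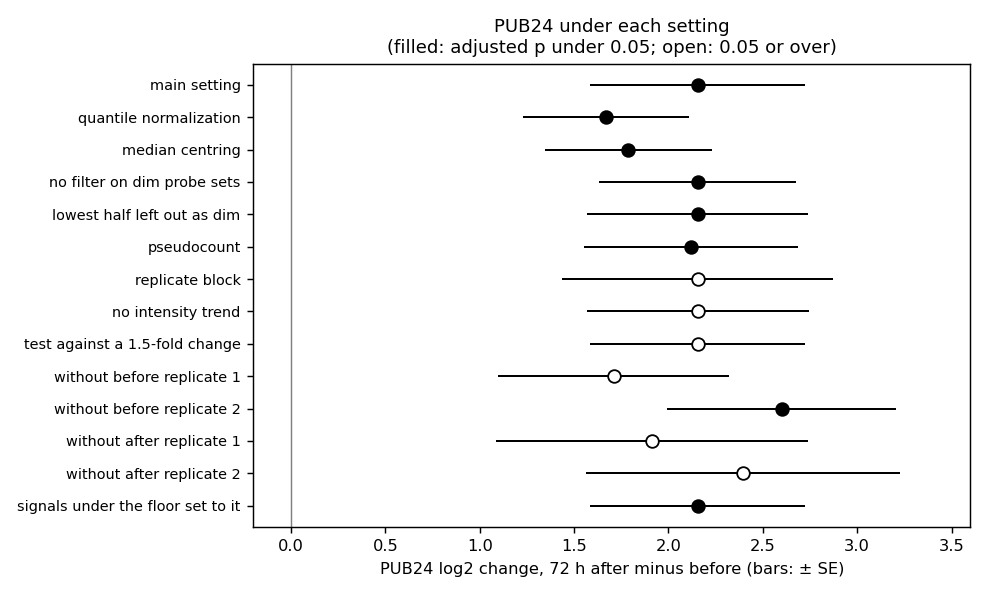
PUB24 log2 change (72 h after minus before) with its standard error in the main setting and 13 alternatives; filled points have a limma adjusted p under 0.05. All values lie between 1.67 and 2.60, and 6 of the 13 alternatives are open points, 3 of them with an array left out.

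Among all tested probe sets 5.34% were called higher and 0.245% lower, the latter 1.46% under median centring and 2.27% under quantile normalization. The 1 rise among 6 tested PUB members is too small a count to set the family apart from that background. Of the 653 probe sets called higher, 483 had a larger fitted log2 change than PUB24, and the median of the 653 was 2.62. PUB24 was therefore among the smaller of the called rises. It stood at the 94.5th percentile of the log2 changes of all tested probe sets.

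PUB22 and PUB23, the closest partners of PUB24 in dampening pattern immunity, gave no call, and neither was measured well. The signal of PUB22 was 1.4 and 17.2 before PBZ and 0.6 and 7.9 after it. On replicate 1 of both groups it lay under 6.3, the lower quartile of all signals, taken here as a floor under which a signal is poorly measured. PUB22 was left out of the test as dim, so it has no p-value and no usable fold. PUB23 had signals of 2.3 and 23.6 before and 6.2 and 12.9 after, and both later arrays lay between the 2 earlier ones. Its log2 change was 0.28 ± 1.15, with an interval from -2.07 to 2.63 (limma adjusted p = 0.942). That interval holds the change of PUB24. A difference between PUB23 and PUB24 was not tested with limma, and none is read from this. The fitted direction of PUB23 turned to -0.059 under quantile normalization, to -0.087 under median centring and to -0.44 with signals under the floor set to it. For both genes replicate 2 was brighter than replicate 1 in each group.

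PUB25 and PUB26, the pair that acts on BIK1, had lower mean signals after PBZ, and neither passed the test. PUB25 had signals of 44.3 and 28.8 before and 14.3 and 19.4 after. Both later arrays lay under both earlier ones, in the direction opposite to PUB24. The means were 36.5 ± 10.96 and 16.9 ± 3.61 (SD, n = 2), with a log2 change of -1.10 ± 0.62 (interval -2.38 to 0.17; limma adjusted p = 0.391). Its change was negative in all 12 alternatives run for it, between -1.47 and -0.79, and was -1.43 under quantile normalization, with the smallest adjusted p over them at 0.142. Of all tested probe sets, 10.6% had both later arrays under both earlier ones and 36.1% had them above. A separation downward was thus less common than one upward, and PUB25 is 1 of 1297 tested probe sets with it.

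PUB26 had signals of 50.0 and 89.3 before and 30.4 and 69.7 after. The groups overlap, and within each group replicate 2 was the brighter array. Its log2 change was -0.54 ± 0.59 (interval -1.74 to 0.66; limma adjusted p = 0.715). It was -0.90 under median centring and -0.98 under quantile normalization, and turned to 0.061 without after replicate 1. The count of PUB members called lower was 0 of 6 with limma, and 0 had an unadjusted p under 0.05 in that direction, beside 1.9% of all tested probe sets.

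PUB19, the brake on abscisic acid and drought responses, had signals of 318 and 358 before and 264 and 398 after. The later values enclose the earlier ones. Its log2 change was -0.058 ± 0.52 with an interval from -1.13 to 1.01 (limma adjusted p = 0.978), or from 0.458 to 2.01 as a fold. The change fitted for PUB24 lies outside that log2 interval, but PUB24's own interval, 0.985 to 3.32, overlaps it. No difference between the 2 genes is read from this. For PUB19 the value was -0.42 under median centring and -0.65 under quantile normalization. It was 0.025 and 0.24 without before replicate 2 and without after replicate 1.

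PUB43, for which no role is given here, had signals of 51.6 and 131 before and 162 and 77.4 after. Each group held 1 low and 1 high array, with replicate 1 low before PBZ and replicate 2 low after it, and the groups overlap. Its log2 change of 0.44 ± 0.60 (interval -0.78 to 1.67; limma adjusted p = 0.778) was close to the median of all tested probe sets. It was 0.077 under median centring and -0.072 under quantile normalization. Over the 6 tested members the median log2 change was 0.11, beside 0.37 for all tested probe sets, with 3 fitted values above 0 and 3 under it, and 67.4% of all tested probe sets above 0. The split depended on the scaling: 2 members were above 0 under median centring and 1, PUB24, under quantile normalization, with 50.3% and 46.7% of all tested probe sets.

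**Figure D3:**
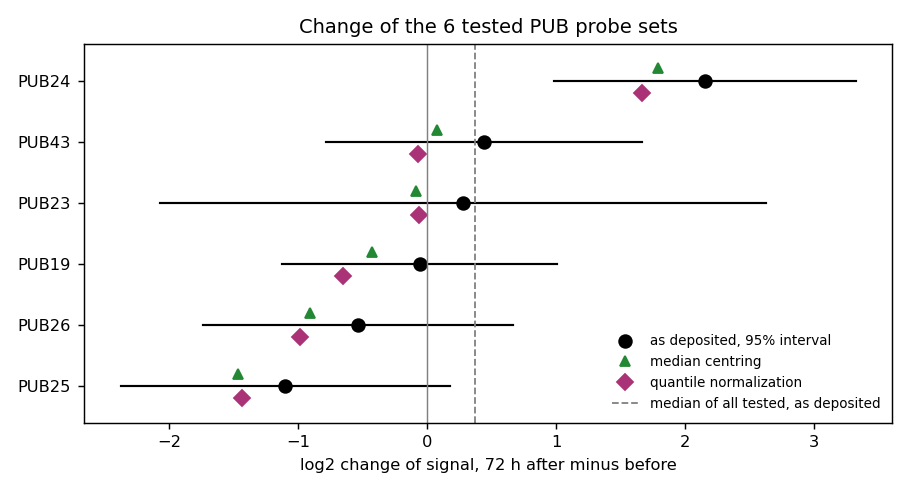
Fitted log2 change (72 h after minus before) of the 6 tested PUB probe sets with its 95% interval as deposited, and the fitted value after median centring and quantile normalization; the dashed line is the median of all tested probe sets (0.37). The interval of PUB24 (0.99 to 3.32) is the only one that does not include 0.

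PUB24 was next set against each other member within the same array, since a ratio within an array does not depend on a constant scaling of that array. Probe sets differ in brightness per transcript, so only the change of a ratio is read, not its level. Against PUB25 the log2 ratio of PUB24 was -0.47 and 1.04 before and 4.003 and 3.079 after, a change of 3.25 or 9.54-fold. Against PUB26 it was -0.64 and -0.59 before and 2.92 and 1.23 after, a change of 2.69. Both ratios were higher on each later array than on each earlier one.

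Against PUB19 the log2 ratio was -3.31 and -2.59 before and -0.20 and -1.28 after, a change of 2.21. Against PUB43 it was -0.69 and -1.14 before and 0.50 and 1.08 after, a change of 1.71. These 2 ratios also separated the groups. The ratios to PUB22 and PUB23 are not read, since both were under the floor on 1 array per group. The other 4 changes were positive as deposited, under quantile normalization, with the pseudocount and with each array left out, the smallest being 1.42 against PUB43 without after replicate 2. They share the 4 PUB24 signals and are not independent of each other. PUB24 itself was higher on both later arrays, and how often ratios of other probe sets separate the groups was not counted.

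With 2 arrays per group an exact 2-sided permutation test cannot go below p = 0.33, which these 4 ratios reached (exact p = 0.50 adjusted over the 6 pairs). No result of that test could have passed, so whether PUB24 responded differently from the other members is not settled by it.

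**Figure D4:**
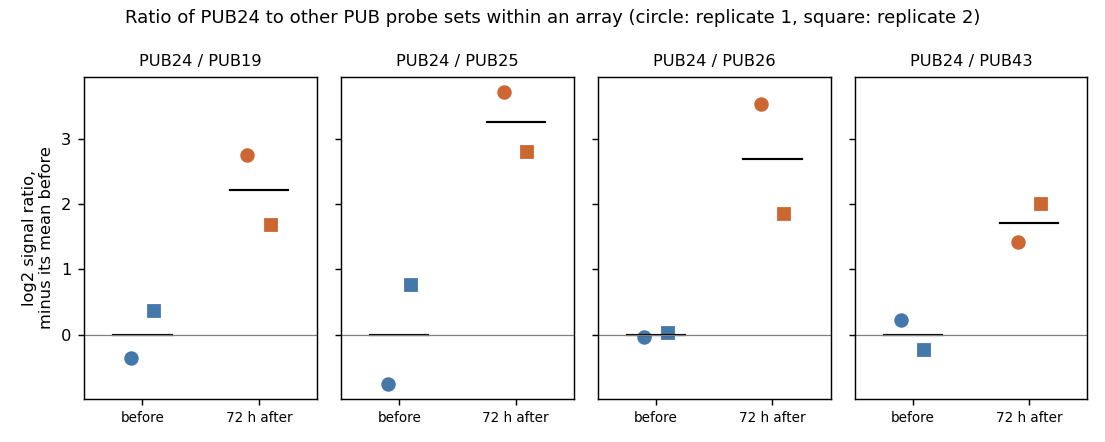
Log2 ratio of the PUB24 signal to that of each PUB probe set above the floor on all arrays, taken within an array, less its mean before PBZ; bars are group means and symbols the replicate number. The 4 ratios are higher on both later arrays, with changes of 1.71 to 3.25, and all share the PUB24 signals. The ratios to PUB22 and PUB23, not drawn, overlap between the groups.

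Genes around the PUB proteins were taken from lists of the immune pathway they act on and of the ubiquitin pathway they belong to. Of 35 genes of pattern immunity 2 were found among probe sets paired with 1 gene, and neither passed the test. Of these 2, 1 had an unadjusted limma p under 0.05 as higher, as did 15% of all tested probe sets. BIK1, the kinase that PUB25 and PUB26 mark for degradation, had signals of 14.2 and 51.7 before PBZ and 109 and 87.7 after it. Both later arrays were above both earlier ones, and before replicate 1 was far below the other 3. Its log2 change was 1.85 ± 0.61 (limma adjusted p = 0.0726), and before replicate 1 decided its size: leaving that array out gave 0.92 (adjusted p = 0.629), while leaving out before replicate 2 gave 2.78 (adjusted p = 0.00899). It passed with a dim filter of 0.5 in place of 0.25 (limma adjusted p = 0.0269) but not with no dim filter (0.194). For BIK1 the log2 change was 1.42 under quantile normalization and 1.48 under median centring. WRKY22, a transcription factor downstream of pattern receptors, had signals of 12.3 and 19.1 before and 16.1 and 17.8 after, with a log2 change of 0.14 ± 0.72 that turned to -0.11 under quantile normalization.

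E2 enzymes hand ubiquitin to ligases such as the PUB proteins. Of them 8 were found by symbol and 7 were bright enough to be tested. None passed with limma after adjustment, and 2 of 7 had an unadjusted p under 0.05, both as higher, beside 15% of all tested probe sets. UBC32, an E2 of the endoplasmic reticulum that takes part in the destruction of misfolded proteins, had signals of 169 and 262 before and 653 and 539 after. Its log2 change was 1.49 ± 0.52 (limma adjusted p = 0.0959), or 0.93 under quantile normalization and 1.13 under median centring. It passed without before replicate 2 (1.81, adjusted p = 0.0388), and not with any other single array left out (1.18 to 1.63, adjusted p from 0.378 to 0.654). UBC19, related to E2 enzymes of the cell cycle, had signals of 92.1 and 152 before and 267 and 349 after, a log2 change of 1.37 ± 0.55 (limma adjusted p = 0.172). For UBC19 the value was 0.78 under quantile normalization and 1.00 under median centring. In 4 of the 7 tested E2 genes, these 2 among them, both later arrays were above both earlier ones, as in 36.1% of all tested probe sets. The 7 tested E2 genes ran from a log2 change of -0.32 to 1.49 with a median of 0.47, beside 0.37 for all tested probe sets.

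**Figure D5:**
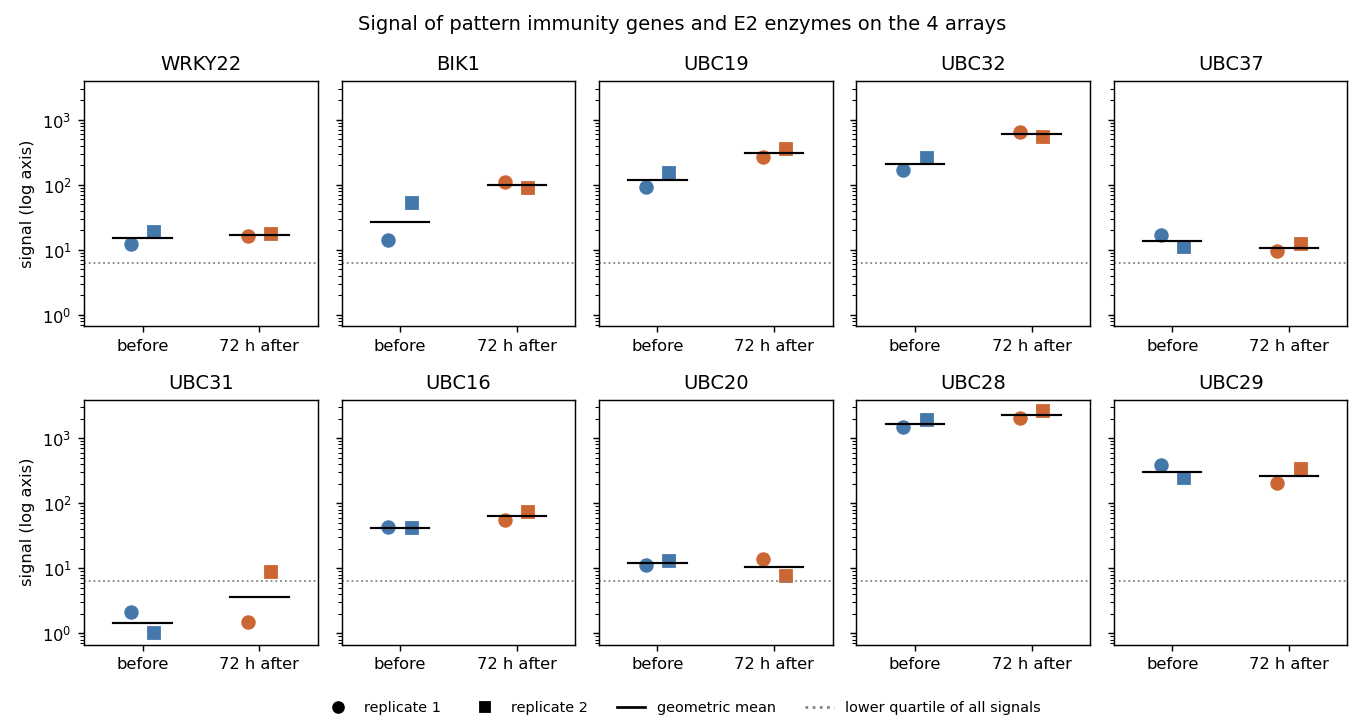
Signal (log axis) on the 4 arrays of the 2 measured genes of pattern immunity and the 8 measured E2 genes, drawn as for the PUB probe sets. BIK1 (14.2 and 51.7 against 109 and 87.7), UBC16, UBC19, UBC28 and UBC32 are higher on both later arrays, as are 36.1% of all tested probe sets, and none of the 9 tested genes passed the adjusted threshold.

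Of the RING type ligases of the ATL family, a second class of plant ubiquitin ligases, 3 were tested. None was called by limma, beside 5.34% of all tested probe sets called higher and 0.245% lower. None had an unadjusted limma p under 0.05, beside 15% higher and 1.9% lower, and 3 genes are too few to set the class apart. In ATL5 both later arrays (19.1 and 15.7) lay under both earlier ones (36.3 and 20.7), as in 10.6% of all tested probe sets. ATL5 was at a log2 change of -0.66 ± 0.65 and ATL4H at 0.66 ± 0.66, the latter at -0.032 without before replicate 1. No gene of the ubiquitin and E1 list or of the proteasome list was found among probe sets paired with 1 gene. These lists were matched by symbol, so apart from the E2 enzymes the steps before and after the ligases were not assessed here.

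The genes whose pattern over the 4 arrays was most like that of PUB24 were found by the Euclidean distance of log2 signals, each gene centred on its own mean, among 5267 other probe sets of 1 gene with all 4 signals above the floor. The closest were AT3G03610 (distance 0.06), TBL35 (0.11), AT2G02370 (0.12), VPS60.1 (0.17) and AT2G18670 (0.20). AT3G03610 had signals of 23.4 and 46.1 before and 175 and 124 after, which follow those of PUB24 array by array. VPS60.1, named for a subunit of the machinery that sorts membrane proteins to the vacuole, had signals of 42.4 and 84.6 before and 279 and 210 after. All 5 were called higher with limma, with log2 changes from 2.02 to 2.16. They were chosen for likeness to PUB24, itself called higher, on these same arrays, so their calls follow largely from the choice. The nearest PUB member was PUB43, at a distance of 1.79 and rank 2195, and PUB25 was the farthest of those measured above the floor, at 3.49 and rank 5175. With 4 arrays and 2 groups, this likeness says little more than that these genes differ by a like amount and share the order of the 4 arrays.

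The neighbours of PUB24 on its chromosome, in the gene order of the reference, were looked up after the data were seen. Of the 4 genes on either side, 4 were found among probe sets paired with 1 gene. Of those 3 were bright enough for the test, and none passed, beside 5.34% of all tested probe sets called higher and 0.245% called lower. In each of the 3 both later arrays were above both earlier ones, as in 36.1% of all tested probe sets. AT3G11830, the next gene on one side, had signals of 58.5 and 124 before and 153 and 144 after (log2 change 0.80 ± 0.57, limma adjusted p = 0.527). AT3G11850, the next on the other side, had 22.0 and 21.8 before and 33.3 and 26.5 after (0.44 ± 0.61, adjusted p = 0.785). AT3G11880, further along, had signals of 49.9 and 81.9 before and 182.5 and 187.0 after (log2 change 1.53 ± 0.56, limma adjusted p = 0.122). A difference between PUB24 and these neighbours was not tested.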

How the data were processed

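RNA of 4 leaf samples was measured on 1-colour Affymetrix arrays. The submitters' processing notes name GCOS, and its version and how it scaled the arrays are not stated there. Each probe set has 1 linear signal intensity per array, used as the authors deposited it. Depth does not apply to arrays, and the 2 arrays per group limit the precision. Behind each limma p-value is a gene's own spread between arrays, shrunk towards that of probe sets of like brightness. With 2 residual and 27.2 prior degrees of freedom, most of that weight comes from other probe sets.

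After 64 control rows were left out, 16319 probe sets remained. Signals were taken as log2, with the 2 values of 0 set to 0.1, and the dimmest 0.25 by mean (4080) were left out, PUB22 among them. limma 3.58.1 in R 4.3.3 (lmFit, then eBayes with a trend on intensity) tested after against before, 2-sided, at an adjusted p of 0.05, with 2 residual and 27.2 prior degrees of freedom. The members and lists were chosen with earlier results of these data known. Named were all members, per list the called genes or else the 2 with the smallest p, and the 5 probe sets most like PUB24. Gene symbols come from the array's annotation and loci from the TAIR10.1 reference, used for names and gene order only. Probe and gene sequences were not used here, so cross-hybridisation between related genes was not tested. The fit was tested on simulated data. The shared replicate numbers are not stated to pair the samples.

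Alternatives were quantile normalization, median centring, no or a stricter dim filter, a pseudocount of 1.3, the replicate block, no intensity trend, a test against a 1.5-fold change, a floor of 6.3, and each array left out.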

Additional observations from a re-analysis of the deposited data

How the results depend on the processing

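PUB24 kept a positive change in 13 of 13 alternatives and passed in 7. The count of PUB members called higher was therefore 0 in place of 1 with the replicate block (PUB24 log2 change 2.15, limma adjusted p = 0.0548), without an intensity trend (2.15, 0.159) and against a 1.5-fold change (2.15, 0.126), and ran from 0 to 1 with single arrays left out, where the change of PUB24 ran from 1.71 to 2.60. Members also taken by reference symbol or synonym gave the same 7 genes. Deviations of same-numbered arrays correlated at -0.0638, so no shared effect of the replicate number was seen. With so few arrays that value cannot show whether the samples were paired, so the result with the replicate block stands beside the main one. The block gave 543 rises and 29 falls over all probe sets. Over all probe sets, where 653 rose and 30 fell, falls numbered 278 under quantile normalization (rises 546), 179 under median centring (rises 604), 15 with no dim filter (rises 447) and 48 with a dim filter of 0.5. Without an intensity trend 157 rose and 8 fell, and against a 1.5-fold change 362 and 8. With single arrays left out, 217 to 1136 rose and 12 to 38 fell. Members of the other lists called higher numbered 0, 1 with a dim filter of 0.5 (BIK1) and 0 to 2 with single arrays left out (BIK1 and UBC32 without before replicate 2).

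Signs of uncalled genes turned as follows, the cause not tested. PUB23 was at -0.059 under quantile normalization, -0.087 under median centring, -0.44 with the floor, and from -1.40 to 1.96 with single arrays left out. PUB43 was at -0.072 under quantile normalization and from -0.23 to 1.12 with single arrays left out. WRKY22 was at -0.11 and -0.22 under quantile normalization and median centring, and from -0.17 to 0.46 with single arrays left out. With single arrays left out PUB19 ran from -0.36 to 0.24, PUB26 from -1.14 to 0.061, UBC20 from -0.64 to 0.20, UBC29 from -0.56 to 0.14, ATL4H from -0.032 to 1.35 and ATL8 from -0.32 to 0.18. Low signal limits PUB22 and PUB23, each under the floor on 1 array per group.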
